A study of Mus musculus with 2 samples.

Results

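The transcripts of p53 and of genes that p53 is known to regulate were examined after stable knockdown of Mybbp1a in C2C12, a myoblast cell line that came from adult leg muscle of the C3H mouse strain. The members were 39 gene names, and a probe belonged to a member where its gene name in the array file was that name, or Pidd1 for Lrdd or Wig1 for Zmat3. This found 36 of the 39 names, carried by 67 of 41174 probes. Aen and Ptp4a3 were found only under older names, with 5 probes, and are described apart, and the name Tap63, an isoform of Trp63, had no probe of its own. Of the 36 members 35 were tested, within 18068 genes tested in all. Perp was left out because its only probe was not well above background in either dye on array 1.

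The knockdown cells stably expressed a short hairpin RNA against Mybbp1a and the control cells a control hairpin. Both were mixed stable clones, kept subconfluent in medium with 20% fetal bovine serum. On both of the 2 arrays the knockdown sample carried the red dye Cy5 and the control sample the green dye Cy3, so dye and knockdown cannot be told apart. The arrays are labelled as biological replicates, but no label says whether they came from separate infections or cultures, and p-values measure only the spread between them, which may be technical.

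p53, encoded by Trp53 in the mouse, is a transcription factor that halts the cell cycle, promotes DNA repair or triggers apoptosis after DNA damage and other stress. Its amount is set mainly at the level of the protein, because the ubiquitin ligase Mdm2, itself a p53 target, marks it for destruction. When ribosome production in the nucleolus fails, free ribosomal proteins bind Mdm2 and p53 accumulates. Mybbp1a, a nucleolar protein, has been reported to bind p53 after nucleolar disruption and to promote its acetylation. The arrays measured messenger RNA only, so neither p53 protein nor its acetylation was read.

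p53 binds pairs of a 10-base half-site, made of 3 purines, a C, A or T at both central places, a G and 3 pyrimidines. RefSeq promoter windows of assembly GRCm38.p6, from 250 bases before to 50 after an annotated start, were matched by symbol for 28 of the 36 members. The half-site, which reads the same on both strands, was present in the windows of 8 of these 28 genes, namely Trp53, Mdm2, Ccng1, Bax, Ei24, Gadd45a, Polk and Sesn1. By window it was present in 8 of 39 member windows (20.5%), against 8.36% of 32817 windows over all genes. A pair of half-sites with at most 13 bases between them was in 0 of the member windows and in 0.0731% of all windows. These are matches of letters, not binding sites, and known p53 sites can lie outside such a window, as in the first intron of Mdm2. Of these 8 genes, 6 are shown, chosen after their values were seen. They are p53 itself, its feedback regulators Mdm2 and Ccng1, and 3 targets whose ratios had the same sign on both arrays. Bax and Polk, not shown, also had the same sign on both arrays, at unadjusted limma p-values of 0.156 and 0.180. Capitals mark the half-site.
Trp53: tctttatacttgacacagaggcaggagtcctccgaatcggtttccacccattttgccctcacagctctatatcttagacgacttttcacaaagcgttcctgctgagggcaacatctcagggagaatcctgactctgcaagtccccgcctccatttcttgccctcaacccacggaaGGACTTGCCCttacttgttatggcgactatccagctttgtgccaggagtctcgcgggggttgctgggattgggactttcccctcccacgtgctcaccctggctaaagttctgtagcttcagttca
Mdm2: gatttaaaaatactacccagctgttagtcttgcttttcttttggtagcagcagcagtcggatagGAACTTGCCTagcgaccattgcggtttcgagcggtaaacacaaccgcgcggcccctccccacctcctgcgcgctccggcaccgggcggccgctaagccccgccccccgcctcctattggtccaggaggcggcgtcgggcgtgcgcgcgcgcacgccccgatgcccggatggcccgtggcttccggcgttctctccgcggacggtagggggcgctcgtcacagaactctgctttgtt
Ccng1: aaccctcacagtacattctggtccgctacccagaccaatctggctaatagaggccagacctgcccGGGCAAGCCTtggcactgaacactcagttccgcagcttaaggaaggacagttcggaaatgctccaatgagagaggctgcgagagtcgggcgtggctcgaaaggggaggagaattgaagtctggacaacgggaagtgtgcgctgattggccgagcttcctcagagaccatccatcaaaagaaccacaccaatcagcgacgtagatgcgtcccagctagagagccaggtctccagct
Sesn1: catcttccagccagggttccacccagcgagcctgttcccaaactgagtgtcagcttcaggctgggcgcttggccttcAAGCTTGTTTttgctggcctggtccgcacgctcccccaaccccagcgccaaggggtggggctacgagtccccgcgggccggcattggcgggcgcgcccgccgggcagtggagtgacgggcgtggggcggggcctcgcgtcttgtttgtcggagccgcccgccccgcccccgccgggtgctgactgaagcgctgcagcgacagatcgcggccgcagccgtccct
Gadd45a: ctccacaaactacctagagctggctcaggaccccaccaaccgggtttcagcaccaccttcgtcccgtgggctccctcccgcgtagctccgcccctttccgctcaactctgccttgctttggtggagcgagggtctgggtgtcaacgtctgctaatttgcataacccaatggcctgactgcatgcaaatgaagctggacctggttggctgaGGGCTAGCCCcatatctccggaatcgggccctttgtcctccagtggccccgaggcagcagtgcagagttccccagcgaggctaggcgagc
Ei24: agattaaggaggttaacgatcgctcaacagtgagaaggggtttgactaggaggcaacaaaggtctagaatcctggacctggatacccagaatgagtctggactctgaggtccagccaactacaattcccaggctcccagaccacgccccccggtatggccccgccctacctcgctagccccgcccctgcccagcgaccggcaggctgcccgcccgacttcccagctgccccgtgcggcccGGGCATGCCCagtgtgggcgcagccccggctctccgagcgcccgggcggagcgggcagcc
The Trp53 window is chr11:69580109-69580408 on the plus strand, with the half-site starting 75 bases before the annotated start. The Mdm2 window is chr10:117710709-117711008 on the minus strand, and its half-site starts 186 bases before the start. The Ccng1 window is chr11:40755237-40755536 on the minus strand, with the half-site 185 bases before the start. The Sesn1 window is chr10:41887189-41887488 on the plus strand, with the half-site 173 bases before the start. The Gadd45a window is chr6:67037358-67037657 on the minus strand, with the half-site 40 bases before the start. The Ei24 window is chr9:36797285-36797584 on the minus strand, with the half-site 10 bases before the start.

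Values are log2 ratios of knockdown over control, so that a positive value means higher in the knockdown cells, and errors are the SD over the 2 arrays. The targeted gene Mybbp1a read -1.64 and -1.91 on arrays 1 and 2, averaging -1.78 ± 0.19 (SD, n = 2; adjusted limma p 0.176). The 8 myoblast markers examined, among them Myod1 and Des, were well above background in both dyes on both arrays. Of the markers of other lineages, Ptprc and Itgam of leukocytes, Pecam1 and Kdr of endothelium and Adipoq and Plin1 of adipocytes were not tested because they were too dim. The other 4 of these 10 markers were tested. The leukocyte genes Cd68 (0.13 and -0.10) and Cd3e (0.00 and 0.08) and the adipocyte gene Fabp4 (0.04 and -0.21) were well above background in every channel. The endothelial cadherin Cdh5 had 1.03 and 0.68, with its control channel not well above background on array 1. The part of other cell types in the results was not tested, and fewer cells of a type cannot be told apart from less RNA per cell. The median spot signal ran from 329 to 449 in Cy5 and from 159 to 184 in Cy3. In limma 0 of 18068 genes (0%) passed an adjusted p of 0.05, and 0 of the 35 members did.

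The p53 genes did not share 1 direction. Of the 35 tested members 16 were above 0 on both arrays, where 40.6% of all tested genes were, and 10 were below 0 on both, where 29.4% of all tested genes were. The other 9 had opposite signs. At an unadjusted limma p under 0.05, 7 members were higher in the knockdown cells and 3 lower, against 13.4% and 7.49% of all tested genes. These counts correspond to 20.0% and 8.57% of the members, and members that met this level are not calls. The 7 include Trp63, which passed the filter on array 1 through its knockdown channel alone. The median of the members was 0.07, with 0.16 on array 1 and 0.02 on array 2, and that of all tested genes was 0.03. With the mean over probes of a gene the order turned, with 0.0084 for the members and 0.02 for all tested genes. No member, 0 of 35, was at least 2-fold apart on both arrays in either direction, as were 0.631% of all tested genes upward and 0.0553% downward. Adjusted limma p-values of the members ran from 0.178 to 0.980.

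**Figure D1:**
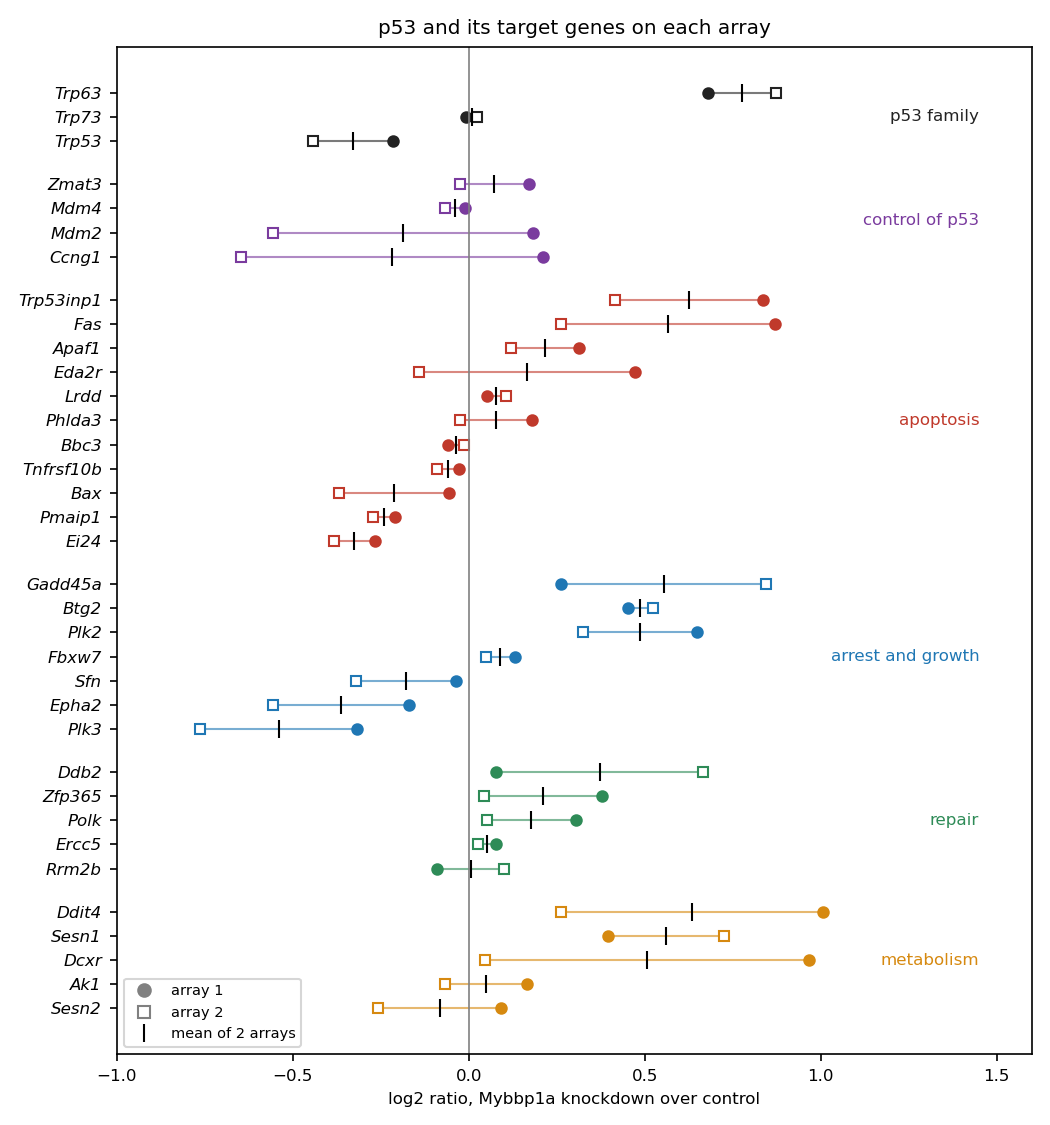
Log2 ratio of knockdown over control (horizontal axis) for each of the 35 tested members, grouped by role. Filled circles are array 1, open squares array 2 and vertical ticks their mean. Trp63, Ddit4, Trp53inp1, Fas, Sesn1, Gadd45a, Btg2 and Plk2 lie above 0 on both arrays, and Plk3, Trp53 and Ei24 below 0 on both.

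Trp53 itself was measured by 2 probes that pointed in opposite directions. The brighter probe, at chr11:69405827-69405886 on build mm8, had a normalized log2 intensity of 12.57 on array 1 and 12.62 on array 2 in the knockdown cells, against 12.78 and 13.07 in the control cells. The ratios of this probe, -0.21 and -0.44, averaged -0.33 ± 0.16, with a limma standard error of 0.10, an unadjusted p of 0.0403 and an adjusted p of 0.222. The second probe, at the lower coordinates chr11:69396652-69396710, had 0.11 and 0.13, a mean of 0.12. Each probe kept its sign on both arrays, so the split lies between probes and not between arrays. The mean over both probes was -0.11, and with the arrays centred on their median in place of loess the brighter probe stood at -0.03.

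Of the p53 relatives, Trp63 was dim and Trp73 was not near the detection limit. Trp63, which encodes p63, a factor of epithelial development, had 0.68 and 0.87 (mean 0.78 ± 0.14, unadjusted limma p 0.00246, adjusted p 0.178) from 1 probe whose control channel was well above background on array 2 only. The normalized log2 intensity was 7.54 and 7.93 in the knockdown cells, against 6.86 and 7.05 in the control cells, which was the lowest mean intensity of any tested member. The other 2 probes of Trp63 were not well above background in either dye on either array, so the ratio rests on a single probe near the detection limit. Trp73, which encodes p73, had -0.01 and 0.02 (mean 0.01 ± 0.02), the closest to 0 of the family. Its tested probe was well above background in both dyes on both arrays. The intensity was 9.03 and 9.43 in the knockdown cells, against 9.04 and 9.41 in the control cells.

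Mdm2 and Ccng1, both targets that act back on p53, had opposite signs on the 2 arrays. Mdm2, the ubiquitin ligase that limits p53, had a normalized log2 intensity of 13.09 on array 1 and 12.72 on array 2 in the knockdown cells, against 12.91 and 13.27 in the control cells. The ratio of Mdm2 was therefore 0.18 on the first array but -0.56 on the second, averaging -0.19 ± 0.52 (adjusted limma p 0.659). The knockdown reading was above control on array 1 and below it on array 2. The second Mdm2 probe behaved alike, with 0.10 and -0.51. Ccng1, cyclin G1, which recruits a phosphatase that activates Mdm2, showed the same split, with 0.21 on array 1 and -0.65 on array 2 (mean -0.22 ± 0.60, adjusted p 0.651). The second Ccng1 probe had -0.04 and -0.80. The arrays differed by 0.74 for Mdm2 and 0.86 for Ccng1, against a median difference of 0.15 over all tested genes and 0.25 over the members. Median centring turned both means above 0, to 0.11 and 0.13. Mdm4, the Mdm2 relative that masks the activation domain of p53, had -0.01 and -0.07 (mean -0.04 ± 0.04), and 0.17 under median centring. Zmat3, an RNA-binding zinc finger protein induced by p53, had 0.17 and -0.03 (mean 0.07 ± 0.14). Thus 0 of the 4 genes of this group was above 0 on both arrays and 1, Mdm4, below 0 on both. The shares of all tested genes were 40.6% and 29.4%.

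**Figure D2:**
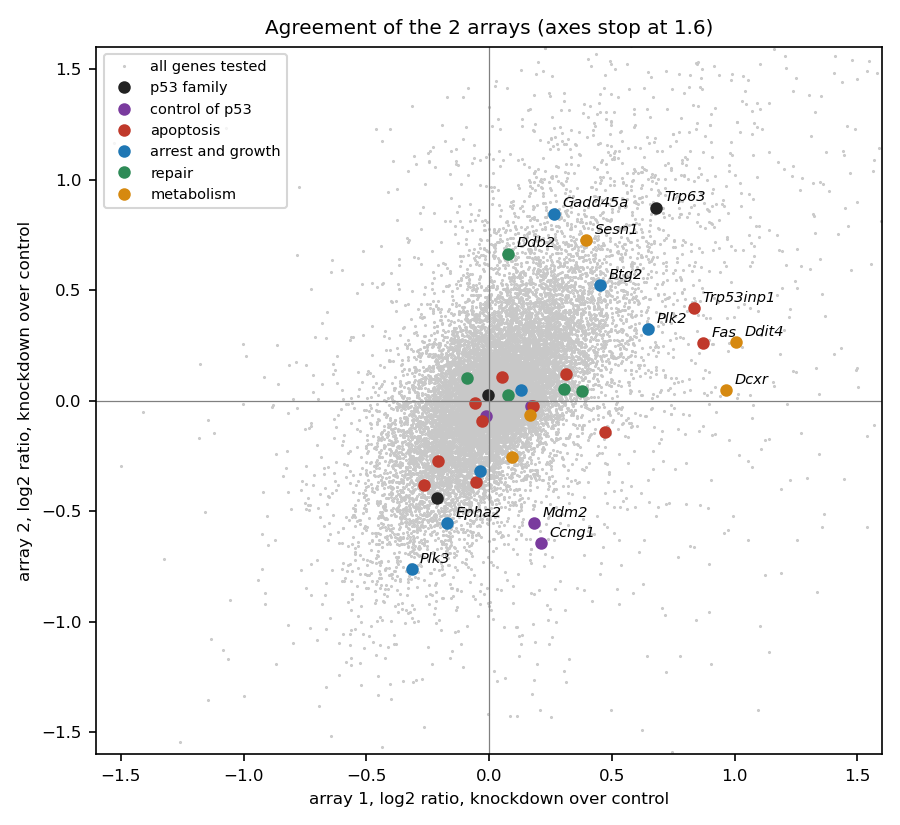
Log2 ratio on array 1 (horizontal) against array 2 (vertical), with all tested genes in grey and the 35 members coloured by role. Mdm2 and Ccng1 lie to the right of 0 on array 1 and at -0.56 and -0.65 on array 2, whereas Gadd45a, Sesn1, Btg2, Plk2 and Trp53inp1 lie in the upper right.

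Over the 35 members the ratios on the arrays correlated with r = 0.57 (Pearson) and rho = 0.64 (Spearman), close to the 0.53 and 0.56 over all 18068 tested genes. These values describe genes that share the same 2 pairs of RNA samples and are no test.

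The apoptosis genes went both ways. Of 11 tested, 4 were above 0 on both arrays and 5 below, beside 40.6% and 29.4% of all tested genes, with a median of 0.08. The sign of this median was not stable: it was 0.05 on array 1, -0.02 on array 2, -0.03 with the mean over probes and 0.0017 in the deposited table. Trp53inp1, a nuclear protein that promotes p53-dependent death and also acts in autophagy, had a normalized log2 intensity of 12.97 and 13.08 in the knockdown cells, against 12.14 and 12.67 in the control cells. Both knockdown readings were above both control readings, giving ratios of 0.84 and 0.42 (mean 0.63 ± 0.30, or 1.54-fold, with a standard error of 0.14, unadjusted limma p 0.0155 and adjusted p 0.188). The share of all tested genes whose readings separate in this way was not counted, here or for the genes below. Its second probe had 0.85 and 0.46. Fas, the death receptor bound by Fas ligand, had an intensity of 9.01 and 9.33 in the knockdown cells, against 8.14 and 9.07 in the control cells. The ratio of Fas was 0.87 on array 1 and 0.26 on array 2 (mean 0.57 ± 0.43, unadjusted limma p 0.0458, adjusted p 0.232), while its dimmer probe had a mean of 0.04. Apaf1, the scaffold of the apoptosome, had 0.31 and 0.12, but its 2 dimmer probes had means below 0, down to -0.15.

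The 5 apoptosis genes below 0 on both arrays were Ei24, Pmaip1, Bax, Bbc3 and Tnfrsf10b. Ei24, a membrane protein of the endoplasmic reticulum first found as a p53-induced gene, had an intensity of 13.34 and 13.10 in the knockdown cells, against 13.60 and 13.48 in the control cells. Both knockdown readings were below both control readings, and the ratio was -0.27 and -0.38 (mean -0.32 ± 0.08, unadjusted limma p 0.0264, adjusted p 0.203). Under median centring it was -0.01. Pmaip1, or Noxa, a BH3-only protein that antagonizes Mcl1, had -0.21 and -0.27 (mean -0.24 ± 0.04, adjusted p 0.242), and 0.03 under median centring. Bax, the pore-forming effector of the outer mitochondrial membrane, had -0.06 and -0.37 (mean -0.21 ± 0.22), and 0.14 under median centring. Bbc3, or Puma, a BH3-only protein, had -0.06 and -0.01, and 0.26 under median centring. None of these 5 passed the test.

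Receptors and adaptors of cell death formed the rest of the group. Tnfrsf10b, the only mouse receptor for Trail that carries a death domain, had -0.03 and -0.09, and its 3 tested probes all had means below 0, with 0.15 for the brightest under median centring. Eda2r, the receptor of ectodysplasin A2, had 0.47 and -0.14, and its probes ran from -0.27 to 0.17. Lrdd, now Pidd1, the core of the complex that activates caspase 2, had 0.05 and 0.11, and Phlda3, which blocks Akt at the membrane, had 0.18 and -0.02. Aen, a nuclease of apoptotic DNA, was found under the name Isg20l1 with 3 probes, of which the file places 2 on chromosome 7. These 2 had means of -0.43 and -0.34. The brightest probe of that name, which represented it in the fit, is placed on chromosome 4, away from the others, so that it may not measure Aen. It had -0.15 and -0.80 (mean -0.47 ± 0.46, adjusted limma p 0.288).

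Of 7 tested genes of cell cycle arrest and growth control, 4 were above 0 on both arrays and 3 below 0 on both. Over all tested genes these shares were 40.6% and 29.4%. None of the 7 had opposite signs, beside 5421 of all 18068 tested genes. With 7 genes these counts are a description only. Gadd45a, which binds Pcna and slows entry into mitosis, had an intensity of 14.30 and 14.06 in the knockdown cells, against 14.04 and 13.21 in the control cells. All knockdown readings were thus above all control readings, and the ratio was 0.26 on array 1 and 0.85 on array 2 (mean 0.55 ± 0.41, unadjusted limma p 0.0440, adjusted p 0.229). Btg2, an antiproliferative cofactor of messenger RNA deadenylation, had 0.45 and 0.52, the smallest difference between arrays among the 10 members with an unadjusted p under 0.05. Its intensity was 10.83 and 11.77 in the knockdown cells, against 10.38 and 11.25 in the control cells, so that the arrays differed in level while the ratio did not. The mean ratio of Btg2 was 0.49 ± 0.05, or 1.40-fold, with a standard error of 0.08, an unadjusted limma p of 0.00676 and an adjusted p of 0.182. Its dimmer probes had means of 0.23 and 0.25, on the same side.

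Plk2 and Plk3, polo-like kinases that respond to stress, stood on opposite sides. Plk2 had an intensity of 13.45 on both arrays in the knockdown cells, against 12.80 and 13.12 in the control cells, with ratios of 0.65 and 0.32 (mean 0.49 ± 0.23, unadjusted limma p 0.0208, adjusted p 0.194). Plk3 had 12.09 and 11.68 in the knockdown cells, against 12.41 and 12.45 in the control cells, with ratios of -0.32 and -0.76 (mean -0.54 ± 0.32, unadjusted limma p 0.0274, adjusted p 0.205). For both kinases the knockdown and control readings did not overlap, as was also so for Trp63 and Trp53. The share of all tested genes without such overlap was not counted. Overlap compares readings across arrays and sets aside the pairing of knockdown with control within each array. Plk3 had the lowest mean of the members, with 98.1% of all tested genes above it, and it stayed below 0 under median centring, at -0.26. The difference between Plk2 and Plk3 was not tested.

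The remaining genes of this group were nearer to 0. Epha2, an ephrin receptor kinase, had -0.17 and -0.56 (mean -0.36 ± 0.27, adjusted p 0.255), and -0.03 under median centring. Sfn, 14-3-3 sigma, which holds the mitotic kinase complex in the cytoplasm, had -0.04 and -0.32, and 0.22 under median centring. Fbxw7, the substrate adaptor of a ubiquitin ligase for cyclin E and Myc, had 0.13 and 0.05, with its second probe at a mean of -0.15. Ptp4a3, a phosphatase found under the name pPtp4a3, had 0.31 and 0.07.

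**Figure D3:**
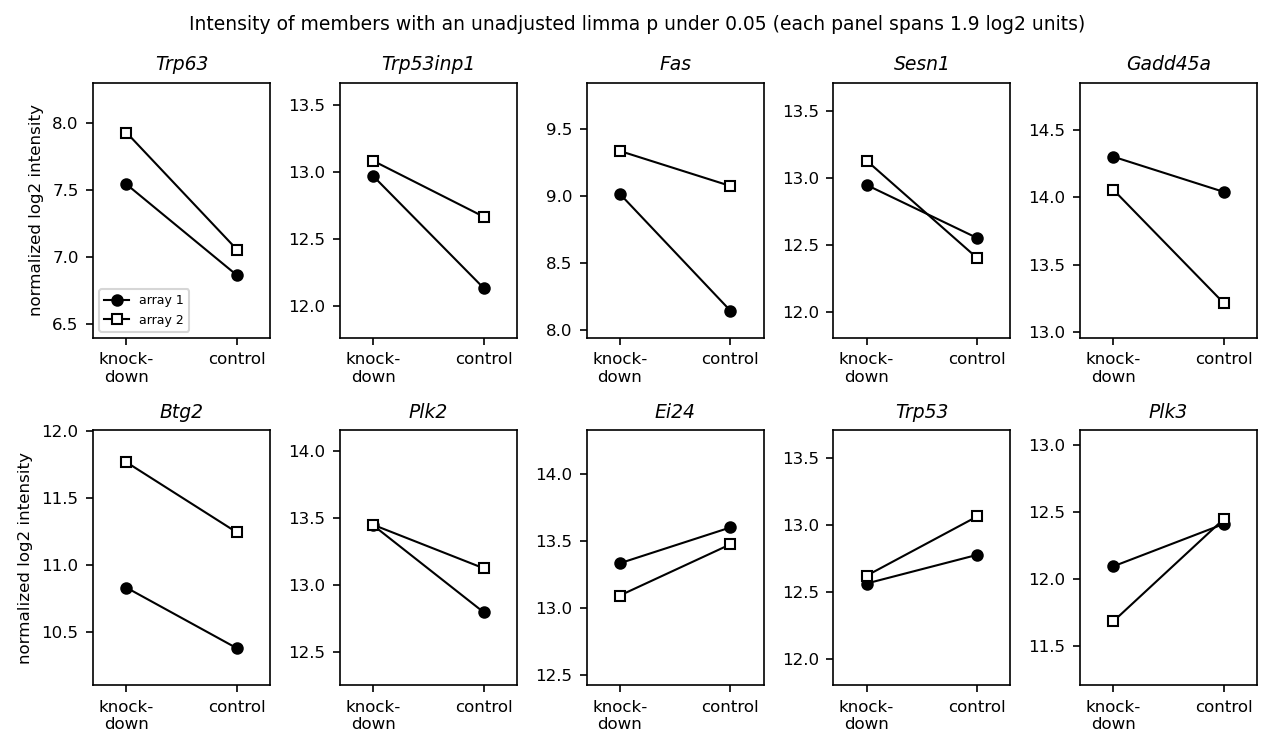
Normalized log2 intensity in knockdown (left of each panel) and control cells (right) for the 10 members with an unadjusted limma p under 0.05, with filled circles for array 1 and open squares for array 2. Lines join the channels of 1 array, and fall to the right for Trp63, Trp53inp1, Fas, Sesn1, Gadd45a, Btg2 and Plk2 and climb for Ei24, Trp53 and Plk3.

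The DNA repair genes had no member whose brightest probe was below 0 on both arrays, beside 29.4% of all tested genes. Of 5 tested, 4 were above 0 on both, beside 40.6% of all tested genes, with a median of 0.18. At an unadjusted limma p under 0.05 there were 0, beside 13.4% of all tested genes higher and 7.49% lower. With 5 genes these counts are a description only. Taken singly, array 1 gave a repair median of 0.08 and array 2 one of 0.05, as did the mean over probes. Ddb2, the damage sensor of nucleotide excision repair that recognises ultraviolet lesions, had an intensity of 9.64 and 9.65 in the knockdown cells, against 9.56 and 8.99 in the control cells. Its ratio was 0.08 on array 1 and 0.67 on array 2 (mean 0.37 ± 0.42, adjusted p 0.334), so most of the mean came from array 2. Zfp365, which helps to keep telomeres and common fragile sites intact, had 0.38 and 0.04. Polk, a translesion DNA polymerase, had 0.30 and 0.05, and its dimmer probe -0.06 and -0.09, a mean of -0.08. Ercc5, the nuclease Xpg, had 0.08 and 0.03. Rrm2b, the p53-inducible subunit of ribonucleotide reductase, had -0.09 and 0.10.

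Metabolic and growth signalling targets had a median of 0.51. Taken singly, array 1 gave 0.40 and array 2 gave 0.05, and the deposited table gave 0.29. Of 5 tested, 3 were above 0 on both arrays and 0 below on both, beside 40.6% and 29.4% of all tested genes. Sesn1, a sestrin that restrains the growth kinase mTORC1 and limits oxidative stress, had an intensity of 12.95 and 13.13 in the knockdown cells, against 12.55 and 12.40 in the control cells. Both knockdown readings were above both control readings. The ratio of Sesn1 was 0.40 on array 1 and 0.73 on array 2 (mean 0.56 ± 0.23, or 1.48-fold, with a standard error of 0.12, unadjusted limma p 0.0140 and adjusted p 0.186). The other 2 probes of Sesn1 had means of 0.57 and 0.38, and each of the 3 probes was above 0 on both arrays. Its relative Sesn2 had 0.09 and -0.26 (mean -0.08 ± 0.25), and 0.22 under median centring, and the difference between the sestrins was not tested.

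Ddit4, or Redd1, a stress-induced inhibitor of mTORC1, had an intensity of 15.12 and 15.41 in the knockdown cells, against 14.12 and 15.15 in the control cells. Its ratio was 1.01 on array 1 and 0.26 on array 2 (mean 0.63 ± 0.53, unadjusted limma p 0.0522, adjusted p 0.242), and the lower knockdown reading was just below the higher control reading. Dcxr, a carbonyl and xylulose reductase, had 0.97 on array 1 and 0.05 on array 2 (mean 0.51 ± 0.65), so its mean came almost wholly from array 1. Its dimmest probe had a mean of 0.05. Ak1, adenylate kinase 1 of muscle, had 0.16 and -0.07.

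Where a gene had several probes, they agreed in sign for 10 genes and disagreed for 8 of the 18 members with more than 1 tested probe, and 17 members had 1. For Sfn the second tested probe is placed on chromosome 8 and the brightest on chromosome 4, so their agreement is uncertain. Agreement covered Trp53inp1, Fas, Sesn1, Dcxr, Btg2, Zmat3, Tnfrsf10b, Sfn, Mdm2 and Ccng1. It held for the means only in some of these. The probes of Tnfrsf10b and Ccng1 differed in sign on array 1, and those of Fas, Dcxr and Zmat3 on array 2. Disagreement covered Trp53, Apaf1, Eda2r, Fbxw7, Lrdd, Mdm4, Polk and Sesn2, whose brightest probes had means between -0.33 and 0.22.

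**Figure D4:**
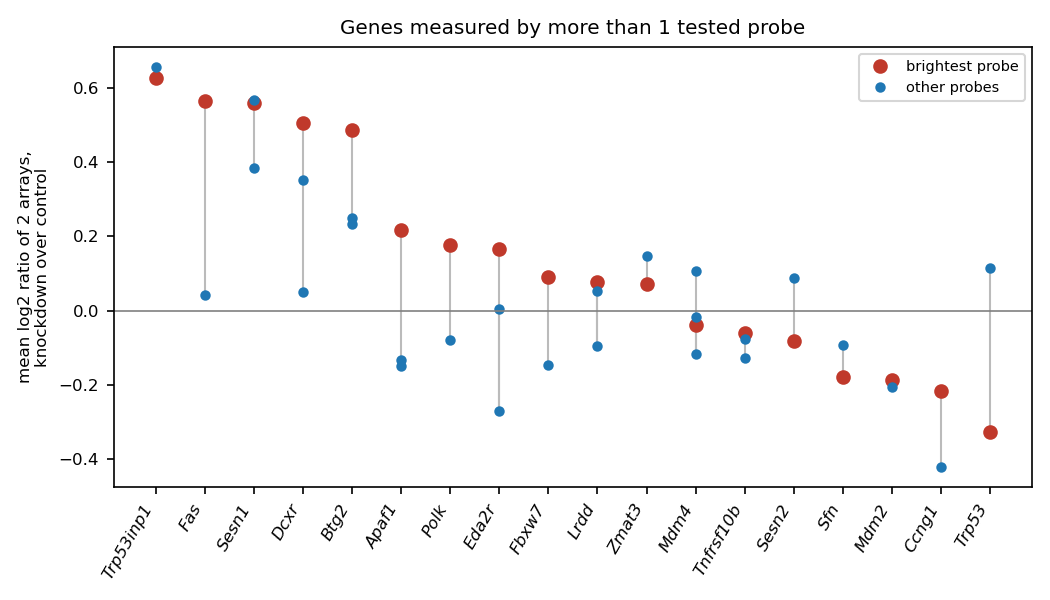
Mean log2 ratio over the 2 arrays, knockdown over control (vertical axis), of each tested probe of the 18 members with more than 1, in order of the brightest probe. Red points are the brightest probe and blue points the others. The probes of Trp53 lie at -0.33 and 0.12 on either side of 0, while those of Trp53inp1, Sesn1 and Btg2 all lie above it.

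The scaling of the arrays set where 0 lay. Median centring in place of loess put the median of all tested genes at 0.21 and that of the members at 0.36. Then 27 members were above 0 on both arrays and 1 below. The shares of all tested genes on either side were not taken in this setting, so these counts say nothing particular to the members. With that setting 8 members, Trp63, Fas, Trp53inp1, Gadd45a, Btg2, Plk2, Sesn1 and Ddit4, passed an adjusted limma p of 0.05 upward, against 16.8% of all tested genes, and 0 passed downward, against 0.321%. Trp63 is among the 8 although it passed the filter on array 1 through its knockdown channel alone. Since 0 passed after loess, these calls rest on the scaling.

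**Figure D5:**
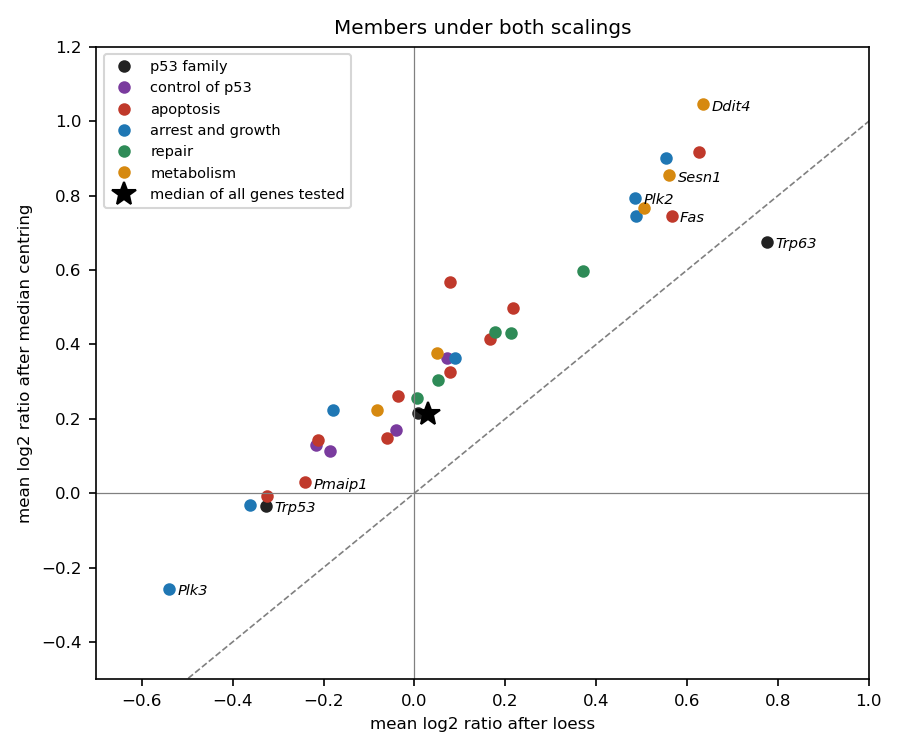
Mean log2 ratio of each member after loess (horizontal) and after median centring (vertical), coloured by role, with the median of all tested genes as a star at 0.03 and 0.21. The dashed line marks equal values. All members but Trp63 lie above it, and Plk3 is the lowest on both axes.

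A further 47 genes of the p53 pathway that are no members were set beside them, 24 upstream regulators and 23 other targets, and 42 were tested. Of these 16 were above 0 on both arrays and 11 below, beside 40.6% and 29.4% of all tested genes, with a median of 0.05, and 0 passed an adjusted limma p of 0.05. At an unadjusted p under 0.05, 10 were higher and 4 lower, beside 13.4% and 7.49% of all tested genes. Rpl5 and Rpl11, the ribosomal proteins that bind Mdm2 when ribosome assembly fails, had 0.55 and 0.47 (mean 0.51 ± 0.06, adjusted limma p 0.182) and 0.51 and 0.16 (mean 0.34 ± 0.25, adjusted limma p 0.257). Rpl23, which also binds Mdm2, had 0.71 and 0.43, and Pml, the organiser of nuclear bodies where p53 is modified, 0.38 and 0.55. These are values of the brightest probe. With the mean over probes Rpl5 stood at 0.51, Rpl11 at 0.11, Rpl23 at 0.32 and Pml at 0.38. Under median centring the brightest probes stood at 1.15 for Rpl5, 0.96 for Rpl11, 1.18 for Rpl23 and 0.74 for Pml. The size of these ratios thus depended on the scaling. Of the DNA damage kinases listed, Atm, Chek1 and Chek2 were tested and had ratios below 0 on both arrays, and Atr was not tested. Atm had -0.41 and -0.39, Chek2 -0.43 and -0.37, and Chek1 -0.22 and -0.28, and the unadjusted limma p of all 3 was under 0.05. Median centring put Atm at -0.16 and Chek2 at -0.18, but Chek1 at 0.02. Cdkn2a, which encodes the Mdm2 inhibitor Arf, was not tested.

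Among the other targets Cdkn1a, the CDK inhibitor p21 and a classical p53 target, had 0.44 on array 1 and -0.03 on array 2 (mean 0.21 ± 0.33, adjusted limma p 0.486), so its sign differed between the arrays as those of Mdm2 and Ccng1 did. Genes with an unadjusted limma p under 0.05 and a mean above 0 were Cyfip2, an actin regulator, at 1.85 and 0.74, Dram1, a lysosomal protein of autophagy, at 0.78 and 1.02, and Gls2, the liver-type glutaminase, at 0.46 and 1.09. Siva1, a death-domain adaptor, had 0.36 and 0.31, Trp53inp2, an autophagy protein related to Trp53inp1, 0.41 and 0.27, Cdip1 0.26 and 0.32, and the repair sensor Xpc 0.21 and 0.32. With the mean over probes Cdip1 fell from 0.29 to 0.10 and Xpc from 0.27 to 0.22. Tigar, a phosphatase that lowers glycolytic flux, was the 1 such gene below 0, at -0.39 and -0.69. Adjusted limma p-values of these 14 genes, upstream and target, ran from 0.178 to 0.233.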

How the data were processed

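The authors deposited the mean spot intensity and local background of both dyes, read with Agilent Feature Extraction 9.5.3.1, per the file headers, with probe coordinates on build mm8. The authors' processed intensity was background-subtracted and dye-normalized and gave a log10 ratio of Cy5 over Cy3, per the file headers. A second deposited table gave log2 ratios with a median of 0 on both arrays. They equal the scanner ratio within 0.001 on the log2 scale for 100% of the 39068 and 38229 probes with a single spot and a value on arrays 1 and 2. The table's direction and scale follow from this match, but its normalization step and the reason for its blanks are not given in the sources used here. Flags of 0 or 1 and other values per spot were deposited beside them.

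Signals were corrected with normexp (offset 50), and log2 ratios normalized within each array by loess (span 0.3) in limma 3.58.1 under R 4.3.3. Control spots were given weight 0, and outlier spots, 154 on array 1 and 237 on array 2, were left out. Spots of 1 probe were averaged. Tested probes were well above background in 1 dye or both on each array, and a gene was represented by its brightest tested probe. Probes of other genes were named through RefSeq accession, symbol or synonym of GRCm38.p6. Ratios were tested against 0 with limma (lmFit, eBayes, two-sided, Benjamini-Hochberg over all genes, 1 residual degree of freedom). Standard errors and p-values were moderated over genes, with 2.41 prior degrees of freedom, so they do not follow from the SD alone. An exact sign-flip test over 2 arrays cannot give a p below 0.5. Normalized intensities of single channels came after Aquantile. The procedure was also run on simulated spots with independent noise and a constant dye difference, and no result here rests on that run. Alternatives were median centring, the deposited table, no background correction, other filters on dim probes, the mean over probes and leaving out each array. The number of arrays limits the precision. All members with a probe were named, as were pathway genes with the same sign on both arrays and an unadjusted p under 0.05. Members, lists and roles were chosen with earlier results of these data known.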

Additional observations from a re-analysis of the deposited data

How the results depend on the processing

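Each alternative was set against loess after normexp. With 1 array left out no test can be made, so medians and ratios were recomputed but not counts. No paired analysis was possible because there is 1 group of ratios and no second group to pair with it by replicate number; each ratio already pairs knockdown with control within an array. Median centring moved most results. All genes called numbered 3095, and at an unadjusted p under 0.05 there were 6620 higher and 402 lower. Among members 19 were higher and 0 lower at that level, 27 were above 0 on both arrays and 1 below. Medians were 0.36 for members, 0.22 for the p53 family, 0.33 for apoptosis, 0.36 for arrest and growth, 0.43 for repair and 0.77 for metabolism. The other pathway genes had a median of 0.34, with 32 above 0 and 3 below on both arrays. Shares of all tested genes above or below 0 on both arrays were not taken under median centring or any other alternative. Counts by sign in those settings therefore say nothing particular to the members or the pathway genes. Mybbp1a, at -1.50, then passed the test. Signs turned for Mdm2 (0.11), Mdm4 (0.17), Ccng1 (0.13), Bax (0.14), Bbc3 (0.26), Pmaip1 (0.029), Tnfrsf10b (0.15), Sfn (0.22) and Sesn2 (0.22). The deposited table, with 29 members, gave 1554 genes higher and 0 members lower at an unadjusted p under 0.05, medians of -0.21 for the p53 family, 0.0017 for apoptosis, 0.50 for arrest and growth, 0.11 for repair and 0.29 for metabolism, and a median of -0.049 with 9 genes above 0 on both arrays for the other pathway genes. There 1182 of all 15931 genes were lower at that unadjusted limma p, and Trp73 (-0.064), Phlda3 (-0.042) and Rrm2b (-0.13) turned. The mean over probes gave a median of 0.0084 for the members and 0.025 for all tested genes, with 12 members above 0 on both arrays, and medians of -0.034 for apoptosis, -0.029 for arrest and growth and 0.052 for repair, and turned Eda2r (-0.034), Apaf1 (-0.022), Fbxw7 (-0.029) and Sesn2 (0.0030). Both channels above background left the p53 family at -0.16, without Trp63. No filter on dim probes gave 5 of 36 members lower at an unadjusted limma p under 0.05, beside 1805 of all 27537 genes. Leaving out the background correction turned no sign of a member. Without array 1 and without array 2, medians were -0.025 and 0.051 for apoptosis, 0.052 and 0.078 for repair, 0.046 and 0.40 for metabolism, and -0.011 and 0.054 for the other pathway genes. The 9 members with opposite signs on the arrays take the sign of the array that is left. The causes of the other shifts were not tested.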

Other observations

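Of the 67 probes of the members 5 were not tested. The only probe of Perp, a membrane protein of desmosomes and apoptosis, had 0.23 on array 1 and 0.03 on array 2 and was above background in the knockdown channel of array 2 alone. The untested probes of Trp63 had means of -0.03 and -0.01, beside 0.78 for the tested one.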
